A study of Mus musculus with 12 samples.

Results

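The genes described here are 10 genes of muscle atrophy: the FoxO transcription factor genes Foxo1, Foxo3 and Foxo4, the ubiquitin ligase genes Fbxo32, Fbxo30, Trim63, Trim54 and Trim55, the transcription factor gene Klf15 and the mitophagy gene Bnip3. They were taken by symbol from a table of 26271 loci, where each of the 10 has 1 locus that holds no other symbol. The cells were C2C12, an established line of mouse myoblasts, grown for 24 h on 1 of 3 sugars, which were glucose at 25 mM (high glucose), glucose at 5 mM (low glucose) and galactose at 10 mM. All 3 media held 1 mM pyruvate, 10% serum and 1% antibiotic, and each group had 4 polyA RNA libraries. The design text of the series speaks of single muscle stem cells, whereas the labels of these 12 libraries name the C2C12 line, and the labels were followed. Values are FPKM (fragments scaled to transcript length and to the mapped fragments of the library), so levels can be compared between genes, with 1 pooled value per group. No spread between libraries, SD or depth can therefore be given. Whether the 4 libraries were grown as separate cultures is not stated in the labels, so the authors' p-values may measure technical spread alone.

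FoxO proteins are kept out of the nucleus when insulin or IGF signalling activates the kinase AKT, and they enter it and switch on target genes when that signal falls. In muscle fibres their best known targets are Fbxo32, which encodes atrogin-1, and Trim63, which encodes MuRF1, a pair of ubiquitin ligases that mark muscle proteins for the proteasome. FoxO activity is controlled largely by phosphorylation and location of the protein, which RNA levels do not measure.

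The ligase genes that fell most were Fbxo32 and Trim55, which dropped in low glucose and dropped further in galactose. Trim54 fell in low glucose but not in galactose, where it stood near its high glucose level. Foxo1 and Foxo3 changed little, Klf15 rose from low glucose to galactose at levels below 1 FPKM, and Trim63 was barely detected in any medium. A gene was called where the authors' tool, Cuffdiff, had tested it and its q (the p-value adjusted by Benjamini-Hochberg over all 44006 tests) was below 0.05. From high to low glucose, 8 of the 10 genes were tested in the authors' deposited table and 5 fell, against 18.2% of all tested loci. In the same comparison 0 of them rose by Cuffdiff, also 0 at an unadjusted p below 0.05, against 18.3% of all tested loci in the authors' deposited table. From high glucose to galactose, 6 of 9 tested genes fell and 1 rose, against 24.8% and 26.5% of all tested loci in the authors' deposited table. From low glucose to galactose, 4 of 9 fell and 4 rose, where 16% and 17.4% of all tested loci did in the authors' deposited table. The first and second of these comparisons share the high glucose libraries, and the third shares a group with each of them. The median log2 change of the tested genes was -0.45, -0.26 and -0.02 in the 3 comparisons of the authors' deposited table, where the median over all tested loci was 0.01 in each.

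**Figure D1:**
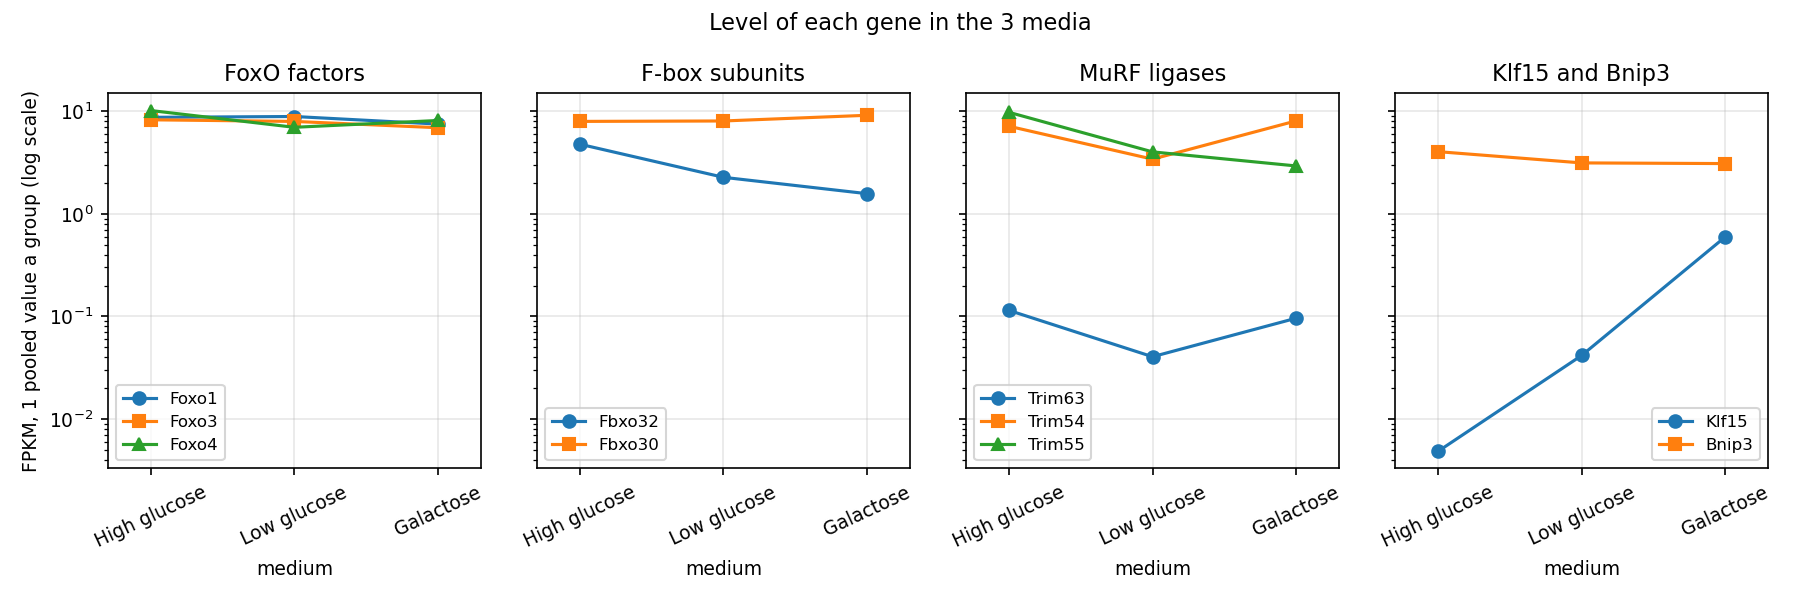
Deposited FPKM of each of the 10 genes (y axis, log scale) in high glucose, low glucose and galactose (x axis), with 1 pooled value per group and therefore no error bars. Fbxo32 and Trim55 step down from left to right, Trim54 dips in low glucose, and Klf15 runs from 0.00483 to 0.595 FPKM.

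The FoxO genes were expressed at similar levels. Foxo1, on chromosome 3 from 52268337 to 52350251 (mm10), had 8.75 FPKM in high glucose, 8.91 FPKM in low glucose and 7.52 FPKM in galactose in the authors' deposited table. Its value was lowest in galactose, by a log2 change of -0.22 from high glucose (q = 0.00706) and of -0.24 from low glucose (q = 0.00334) in the authors' deposited table. From high to low glucose it was not called (log2 change 0.03, q = 0.804, the authors' deposited table). Foxo3, on chromosome 10 from 42181844 to 42276815, encodes the factor most studied in muscle wasting. Its values were 8.28, 7.98 and 6.93 FPKM in high glucose, low glucose and galactose in the authors' deposited table. The order is that of Foxo1 except that high glucose stood above low glucose, a difference that was not called (q = 0.672) in the authors' deposited table. Foxo3 was lower in galactose by a log2 change of -0.26 from high glucose (q = 0.0127) and -0.20 from low glucose (q = 0.0460) in the authors' deposited table.

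Foxo4 took another course. This X-linked gene, whose locus runs from 101254231 to 101260873, had 10.2 FPKM in high glucose, 6.99 FPKM in low glucose and 8.15 FPKM in galactose in the authors' deposited table. It was the only one of the 3 FoxO genes called between high and low glucose, with a log2 change of -0.54 (q = 0.000239) by the authors' deposited table. From low glucose to galactose it rose by a log2 change of 0.22 (q = 0.0102) while staying below high glucose (log2 change -0.32, q = 0.000239) in the authors' deposited table. Whether Foxo4 differed from Foxo1 and Foxo3 was not tested. Summed over these 3 genes, the level was 27.2, 23.9 and 22.6 FPKM in high glucose, low glucose and galactose in the authors' deposited table. The sum leaves out Foxo6, another FoxO gene, which had 2.56, 2.29 and 4.56 FPKM in the same order. The order of the media in this sum therefore need not hold for the whole FoxO family. Foxo4 made up 37.4%, 29.3% and 36.1% of that sum in the same order, again from the authors' deposited table.

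Of the F-box genes, whose products bring substrates to SCF ubiquitin ligases, 1 moved strongly and the other hardly at all. Fbxo32 lies on chromosome 15 from 58175879 to 58214892 (mm10) on the minus strand. Its level was 4.78 FPKM in high glucose, 2.27 FPKM in low glucose and 1.58 FPKM in galactose in the authors' deposited table. Low glucose thus held 47.6% and galactose 32.9% of the high glucose value in the authors' deposited table. The log2 changes were -1.07 and -1.60 from high glucose and -0.53 from low glucose to galactose, each at the lowest q of the authors' deposited table, 0.000239. As many as 9204 tests have this same lowest q in the authors' deposited table. Fbxo30, on chromosome 10 from 11281330 to 11297969, encodes MUSA1, a ligase subunit studied in denervated muscle. Its values were 7.98, 8.06 and 9.16 FPKM in high glucose, low glucose and galactose in the authors' deposited table. Fbxo30 rose in galactose by log2 changes of 0.20 from high glucose (q = 0.0175) and 0.18 from low glucose (q = 0.0280), and was not called between both glucose media (q = 0.903), in the authors' deposited table. Fbxo30 was therefore higher in galactose while Fbxo32 was lower there.

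The MuRF ligases are RING-finger proteins that bind the sarcomere. Trim55, which encodes MuRF2, lies on chromosome 3 from 19644442 to 19692607 (mm10). It had 9.79 FPKM in high glucose, 4.03 FPKM in low glucose and 2.94 FPKM in galactose in the authors' deposited table. Its fall was 2.43-fold in low glucose and 3.33-fold in galactose, log2 changes of -1.28 and -1.74 (both q = 0.000239) in the authors' deposited table. The further step from low glucose to galactose was a log2 change of -0.46 (q = 0.000239) in the authors' deposited table. Trim54, which encodes MuRF3, a microtubule-associated member of the family, lies on chromosome 5 from 31116612 to 31137626. Its values were 7.16, 3.42 and 8.07 FPKM in high glucose, low glucose and galactose in the authors' deposited table. Trim54 fell 2.09-fold in low glucose (log2 change -1.07, q = 0.000239) and was 2.36-fold higher in galactose than in low glucose (log2 change 1.24, q = 0.000239) in the authors' deposited table. Between high glucose and galactose it was not called, with a log2 change of 0.17 (unadjusted p = 0.0466, q = 0.101) in the authors' deposited table.

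Trim55 exceeded Trim54 in both glucose media, by a ratio of 1.37 in high and 1.18 in low glucose, from values of the authors' deposited table. In galactose the order turned, with 2.75 times as much Trim54 as Trim55, again from the authors' deposited table. No test of these ratios could be made. Trim63, on chromosome 4 from 134315120 to 134329629, had 0.114, 0.0404 and 0.0959 FPKM in high glucose, low glucose and galactose in the authors' deposited table. The tool did not test it in any comparison for lack of reads, so its log2 differences carry no call. Trim63 made up 0.670%, 0.540% and 0.863% of the summed MuRF level in the same order, from the authors' deposited table. That sum was 17.1 FPKM in high glucose, 7.49 FPKM in low glucose and 11.1 FPKM in galactose.

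The promoters of Trim63 and Trim54 are shown because these sister genes differ in level, and because the Trim63 promoter is a textbook case of neighbouring sites for FoxO and the glucocorticoid receptor. Each is the 250 bases before the RefSeq start (GRCm38.p6, the mm10 sequence), on the plus strand, at chr4:134314870-134315119 and chr5:31116362-31116611. Capitals mark every match, on either strand, to the FoxO motif GTAAACA, the receptor half-site AGAACA and the E-box CAGCTG, a form bound by the MYOD family.
Trim63: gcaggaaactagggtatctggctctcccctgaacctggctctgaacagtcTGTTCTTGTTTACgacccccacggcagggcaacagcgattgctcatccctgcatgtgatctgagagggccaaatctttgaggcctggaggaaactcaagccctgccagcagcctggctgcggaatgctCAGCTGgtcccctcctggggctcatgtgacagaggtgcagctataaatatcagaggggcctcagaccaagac
Trim54: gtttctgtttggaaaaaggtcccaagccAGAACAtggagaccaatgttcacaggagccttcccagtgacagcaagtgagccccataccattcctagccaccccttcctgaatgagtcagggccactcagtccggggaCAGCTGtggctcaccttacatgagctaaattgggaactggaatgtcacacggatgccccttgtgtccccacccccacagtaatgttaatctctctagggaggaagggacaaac
The Trim63 window holds the FoxO motif with its first base 194 bases before the start, directly after a receptor half-site at 200 bases, both read on the minus strand as TGTTTAC and TGTTCT. It also holds the E-box at 72 bases. The Trim54 window holds the E-box at 113 bases and a half-site at 222 bases, counted from the RefSeq start at 31116612, which is also the deposited locus start, whereas GENCODE M21 starts the gene at 31116712. Over all 32851 RefSeq windows of this length, 3.17% hold GTAAACA, 16.1% AGAACA and 13.0% CAGCTG. Of the 7 genes with a window, Trim63 alone holds GTAAACA. A match is a run of letters only, and none was tested for binding here.

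Klf15 encodes a zinc-finger factor that glucocorticoids induce in muscle and that switches on genes of amino acid breakdown. Its locus, on chromosome 6 from 90462626 to 90475209 (mm10), had 0.00483 FPKM in high glucose, 0.0415 FPKM in low glucose and 0.595 FPKM in galactose in the authors' deposited table. All 3 values lie below 1 FPKM, and even in galactose 9.9% of the loci tested in any comparison were lower. From low glucose to galactose it was called higher, with a log2 change of 3.84 (q = 0.000456) by the authors' deposited table. The larger log2 change of 6.94 from high glucose to galactose was not called (q = 0.213), and the step from high to low glucose was not tested, in the authors' deposited table. The size of these changes rests on values near 0 and is uncertain. With 1 FPKM added to both groups, the log2 change was 0.61 from low glucose and 0.67 from high glucose to galactose.

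Bnip3 encodes a receptor on the outer mitochondrial membrane that draws mitochondria into autophagy, and it is known as a target of both FoxO3 and hypoxia-inducible factors. On chromosome 7 from 138888898 to 138909506 (mm10), it had 4.05 FPKM in high glucose, 3.14 FPKM in low glucose and 3.10 FPKM in galactose in the authors' deposited table. High glucose stood above both other media, by log2 changes of -0.36 in low glucose (q = 0.00232) and -0.39 in galactose (q = 0.00179) in the authors' deposited table. Low glucose and galactose were not called apart (log2 change -0.02, q = 0.907) in the authors' deposited table. Its relative Bnip3l, which encodes NIX, was not called in any comparison, with 13.1, 13.0 and 11.7 FPKM in the 3 media of the authors' deposited table.

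The windows of Klf15 and Bnip3 are shown because they are the only members whose windows hold ACGTG, the core letters of the hypoxia response element. They lie at chr6:90462326-90462575 (plus strand) and chr7:138909507-138909756 (minus strand, printed in the gene's direction). Capitals mark each match to ACGTG on either strand.
Klf15: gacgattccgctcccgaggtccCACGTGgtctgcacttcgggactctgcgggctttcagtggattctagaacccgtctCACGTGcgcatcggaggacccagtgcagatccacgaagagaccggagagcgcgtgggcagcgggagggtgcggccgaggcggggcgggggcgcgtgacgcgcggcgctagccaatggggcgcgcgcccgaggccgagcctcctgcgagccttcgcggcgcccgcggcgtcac
Bnip3: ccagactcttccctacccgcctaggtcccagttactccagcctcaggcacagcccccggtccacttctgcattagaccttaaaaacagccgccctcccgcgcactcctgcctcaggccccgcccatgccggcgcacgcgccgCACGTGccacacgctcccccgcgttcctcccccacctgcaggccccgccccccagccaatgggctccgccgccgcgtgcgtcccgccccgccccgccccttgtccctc
Every match is the palindrome CACGTG, so that ACGTG is read on both strands at each site. Klf15 holds it with the first base 228 and 172 bases before the start, and Bnip3 at 108 bases. Of all RefSeq windows, 16.6% hold ACGTG and 6.02% hold CACGTG. The same letters are a common E-box, bound by several factor families. The windows of Foxo1, Foxo3 and Fbxo30 hold none of the letters searched.

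**Figure D2:**
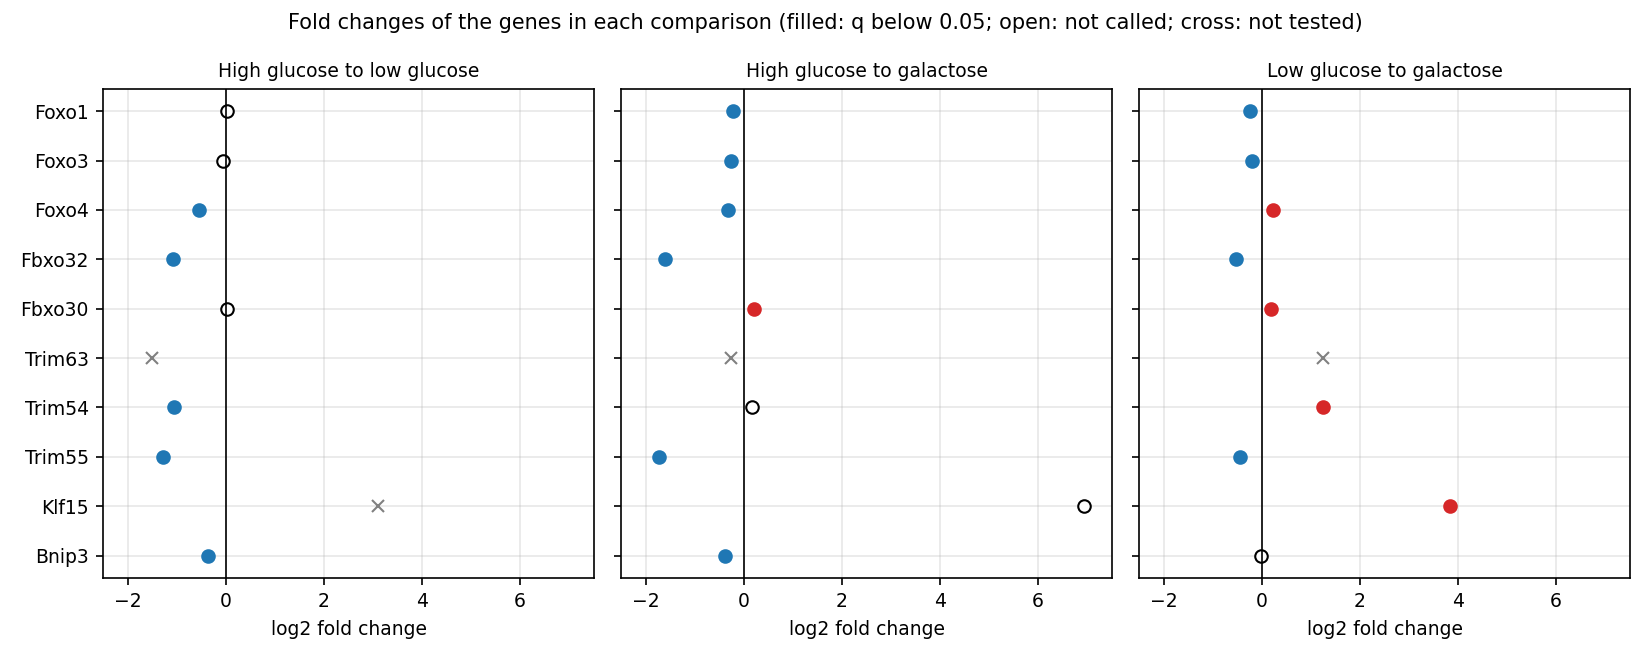
Log2 fold change (x axis), as the authors' deposited table gives it, of each of the 10 genes (rows) in the 3 comparisons (panels); filled points had q below 0.05, open points were tested and not called, and crosses were not tested. Foxo4 and Trim54 are blue (lower) in the first panel and red (higher) in the third, whereas Fbxo32 and Trim55 are blue in every panel.

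For changes of at least 2-fold, all tested loci were counted only in the direction in which genes described here moved. That direction was lower from high glucose to either other medium, and higher from low glucose to galactose. The shares of all tested loci that changed by that much in the opposite direction were not counted. From high to low glucose, Fbxo32, Trim54 and Trim55 were called lower by at least 2-fold, 3 of 8 tested, where 2.45% of all tested loci were in the authors' deposited table. From high glucose to galactose, 2 of 9 tested (Fbxo32 and Trim55) fell by that much, where 5.16% of loci did in the authors' deposited table. From low glucose to galactose, Trim54 and Klf15 rose by at least 2-fold, 2 of 9 tested, against 1.69% of loci in the authors' deposited table. Foxo4, Fbxo32 and Trim55 were called in all 3 comparisons, which share groups. The share of all loci called in all 3 was not counted.

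Muscle marker genes moved beside the ligases. For the counts below, the shares of all tested loci called lower were 18.2% from high to low glucose and 24.8% from high glucose to galactose. From low glucose to galactose 16% were called lower. The shares called higher were 18.3%, 26.5% and 17.4% in the same order. Of 7 myoblast markers, 6 fell from high to low glucose and 7 from high glucose to galactose, and 7 fell from low glucose to galactose in the authors' deposited table. Myod1, the myoblast regulator, went from 154 through 108 to 71.5 FPKM per the authors' deposited table. The summed level of these 7 genes was 884, 578 and 470 FPKM for high glucose, low glucose and galactose, summed from the authors' deposited table, the same order as Fbxo32 and Trim55. Of 13 tested loci of differentiated muscle, 12 fell from high to low glucose, and 12 rose from low glucose to galactose in the authors' deposited table. From high glucose to galactose 5 fell and 1, the skeletal actin gene Acta1, rose in the authors' deposited table. Their summed level over all 14 loci was 69.2, 38.7 and 78.1 FPKM by the authors' deposited table. Acta1 alone put galactose above high glucose in this sum, since the other 13 loci summed to 53.1, 27.6 and 47.9 FPKM by the authors' deposited table. Myog, the regulator of terminal differentiation, had 3.61, 1.42 and 2.78 FPKM per the authors' deposited table. Of 4 tested fibroblast markers, 4 fell from high to low glucose and 3 from high glucose to galactose in the authors' deposited table. From low glucose to galactose 2 fell and 1, Dcn, rose from 0.460 to 0.648 FPKM. The summed level of all 5 was 280, 164 and 104 FPKM by the authors' deposited table. Most of that sum was Col3a1, with 225, 130 and 84.0 FPKM in the same order. The part of muscle differentiation and of these fibroblast genes in the changes of Trim54, Trim55 and Fbxo32 was not tested. In pooled RNA, fewer cells expressing a gene and less RNA per cell cannot be told apart.

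**Figure D3:**
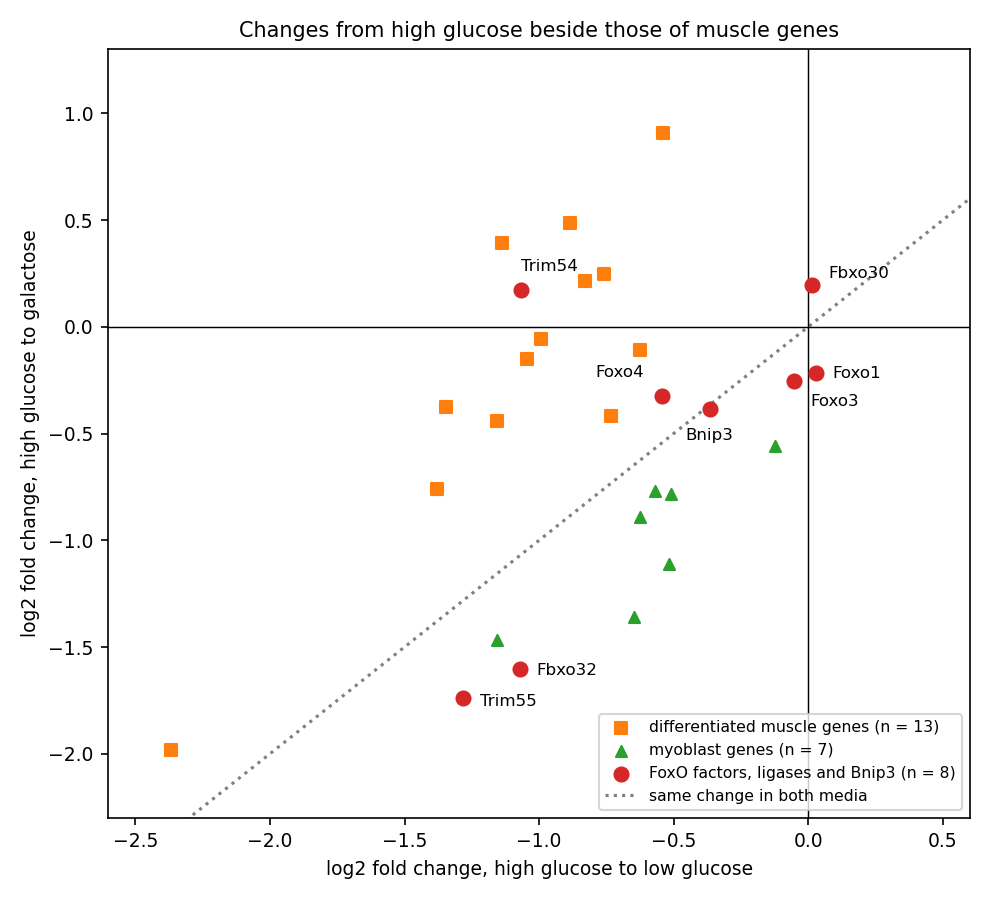
Each point is a gene placed by its log2 fold change from high glucose to low glucose (x axis) and from high glucose to galactose (y axis) in the authors' deposited table; both axes share the high glucose group, and points above the dotted line were higher in galactose than in low glucose. Trim54 lies among the differentiated muscle genes (squares) at -1.07 and 0.17. Fbxo32 and Trim55 lie below the line, as do Foxo1, Foxo3, Bnip3 and the 7 myoblast genes (triangles). Fibroblast genes are not drawn.

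Of the genes that mark myoblasts, the labelled cell type, Myod1, Des and Cdh15 had 154, 456 and 104 FPKM in high glucose in the authors' deposited table. Markers of adipocytes summed to at most 0.531 FPKM and those of endothelium to at most 0.211 FPKM in any medium, by the authors' deposited table. Of the macrophage markers, Ptprc stayed below 0.01 FPKM and Emr1 was listed at 0 in every medium in the authors' deposited table. Csf1r had 0.0942, 0.0758 and 0.0464 FPKM in high glucose, low glucose and galactose. Cd68, whose locus is shared with another gene, went the other way, with 72.7, 96.0 and 98.6 FPKM in the same order. That shared locus was called higher in low glucose and in galactose than in high glucose. Of the fibroblast markers, Col3a1 and Pdgfrb were expressed, with 225 and 52.2 FPKM in high glucose, and Thy1 was listed at 0 in the authors' deposited table.

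Of 34 genes that control FoxO proteins, 18 were called in at least 1 comparison of the authors' deposited table. The share of all loci called in at least 1 comparison was not counted, so this count has nothing to be set against. The number tested was 33 from high glucose to galactose, where 9 fell and 2 rose, with a median log2 change of -0.08, per the authors' deposited table. From high to low glucose 4 fell and 6 rose of 33 (12.1% and 18.2%, against 18.2% and 18.3% of all tested loci). From low glucose to galactose 10 fell and 2 rose of 32 (31.2% and 6.25%, against 16% and 17.4%) in the authors' deposited table. The share that fell from high glucose to galactose, 27.3%, was near the 24.8% of all tested loci, and the share that rose was 6.06% against 26.5%, in the authors' deposited table. Irs1, the adaptor that links the insulin and IGF receptors to PI3-kinase, fell from 27.3 to 19.0 and 10.1 FPKM by the authors' deposited table, log2 changes of -0.52 and -1.43 from high glucose (both q = 0.000239). Pik3r1, a regulatory PI3-kinase subunit, went from 12.4 to 8.79 and 8.55 FPKM, and the catalytic subunit gene Pik3cb from 4.46 to 4.38 and 2.99 FPKM per the authors' deposited table. Pik3cb was not called between both glucose media (q = 0.850) in the authors' deposited table. Akt1 stood with 242, 244 and 247 FPKM, and its lowest q over the 3 comparisons was 0.629 in the authors' deposited table. Igf1r had 6.43, 6.13 and 6.02 FPKM and was not called in any comparison either (lowest q = 0.278) in the authors' deposited table. Irs2 was called from low glucose to galactose alone, with 9.21 and 10.6 FPKM (q = 0.0245) in the authors' deposited table. Of enzymes that modify FoxO proteins, the deacetylase gene Sirt1 had 5.92, 6.73 and 5.61 FPKM and was called higher in low glucose than in either other medium, the acetyltransferase gene Ep300 was not called in any comparison, and the methyltransferase gene Prmt1 rose from 202 to 241 and 265 FPKM by the authors' deposited table.

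General FoxO target genes, those known from many cell types, went both ways. The list was not split into genes that FoxO factors raise and genes that they lower, so its counts do not measure FoxO activity. Of 25 tested, 13 fell and 5 rose from high to low glucose, and 13 fell and 8 rose from high glucose to galactose, in the authors' deposited table. Their median log2 changes were -0.20 and -0.30, beside 0.01 for all tested loci in the authors' deposited table. From low glucose to galactose 10 fell and 7 rose, with a median of -0.05, in the authors' deposited table. The share that fell was 52% from high glucose to each other medium, against 18.2% and 24.8% of all tested loci, in the authors' deposited table. The share that rose was 20% and 32%, against 18.3% and 26.5%. From low glucose to galactose 40% fell and 28% rose, against 16% and 17.4%. Pdk4, which encodes a kinase that inhibits pyruvate dehydrogenase, fell from 17.2 to 11.1 and 4.50 FPKM per the authors' deposited table. Sepp1, the selenoprotein P gene, fell from 3.41 to 1.28 and 0.896 FPKM by the authors' deposited table. Cdkn1b, the gene of the cell cycle inhibitor p27, fell from 34.6 to 30.1 and 25.8 FPKM per the authors' deposited table. In the opposite direction, Gadd45a, a stress gene also driven by ATF4 in atrophying muscle, rose from 28.8 to 56.4 and 178 FPKM by the authors' deposited table. Eif4ebp1, which encodes a repressor of cap-dependent translation, rose from 268 to 588 and 987 FPKM per the authors' deposited table. Sod2, the mitochondrial superoxide dismutase gene, was called from high glucose to galactose, with 16.6 and 20.1 FPKM (q = 0.000456) in the authors' deposited table.

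Other ubiquitin ligase and atrophy genes of muscle were called in both directions. Of 26 tested from high glucose to galactose, 10 rose and 4 fell, with a median log2 change of 0.06, per the authors' deposited table. From high to low glucose 6 rose and 4 fell of 25 (24% and 16%, against 18.3% and 18.2% of all tested loci). From low glucose to galactose 7 rose and 1 fell of 25 (28% and 4%, against 17.4% and 16%) in the authors' deposited table. The shares from high glucose to galactose were 38.5% higher and 15.4% lower, beside 26.5% and 24.8% of all tested loci in the authors' deposited table. Ubr2, a ligase gene raised in wasting muscle, went from 16.7 to 21.7 and 25.1 FPKM by the authors' deposited table. The lysosomal protease gene Ctsl had 223, 240 and 390 FPKM and was called higher in galactose than in either glucose medium in the authors' deposited table. Ddit4, whose product inhibits mTORC1, rose from 29.2 to 34.1 and 67.0 FPKM, and the metallothionein gene Mt2 from 260 to 335 and 467 FPKM per the authors' deposited table. Asb2 and Fbxo21 fell from high glucose to galactose, from 0.506 to 0.102 FPKM and from 11.8 to 9.07 FPKM. Ube2d1 and the shared locus of Usp19 fell too, from 29.0 to 23.6 FPKM and from 91.0 to 66.5 FPKM. These are the 4 called lower in that comparison.

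Among autophagy genes linked to FoxO3, 4 of 18 tested rose and 5 fell from high glucose to galactose, with a median log2 change of -0.03, per the authors' deposited table. From high to low glucose 1 rose and 4 fell (5.56% and 22.2%, against 18.3% and 18.2% of all tested loci). From low glucose to galactose 3 rose and 3 fell (16.7% each, against 17.4% and 16%) in the authors' deposited table. The shares in galactose against high glucose, 22.2% higher and 27.8% lower, were near those of all tested loci (26.5% and 24.8%) in the authors' deposited table. Sqstm1, the gene of the autophagy receptor p62, rose from 427 to 624 and 1560 FPKM by the authors' deposited table. Tfeb, a master regulator of lysosomal genes, fell from 7.59 to 5.74 and 3.76 FPKM, and the kinase gene Ulk2 from 8.93 to 7.42 and 6.02 FPKM per the authors' deposited table. Atg7 was called higher in galactose than in either glucose medium, with 6.83, 7.68 and 10.3 FPKM by the authors' deposited table. Map1lc3b was not called in any comparison (25.7, 25.8 and 27.0 FPKM) in the authors' deposited table.

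Hypoxia-inducible genes other than Bnip3 went both ways. Of 19 tested, 8 rose and 6 fell from high glucose to galactose, 4 rose and 5 fell from high to low glucose, and 6 rose and 1 fell from low glucose to galactose in the authors' deposited table. Their shares from high glucose to galactose were 42.1% higher and 31.6% lower, beside 26.5% and 24.8% of all tested loci in the authors' deposited table. From high to low glucose the shares were 21.1% and 26.3%, beside 18.3% and 18.2%. From low glucose to galactose they were 31.6% and 5.26%, beside 17.4% and 16%. Vegfa, the vascular growth factor gene, rose from 84.9 to 136 and 189 FPKM, and Ero1l, an oxidase of the endoplasmic reticulum, from 7.98 to 14.2 and 34.6 FPKM per the authors' deposited table. Ndrg1 was called higher in galactose alone, with 29.1, 31.5 and 91.7 FPKM by the authors' deposited table. Ankrd37 was lower in galactose than in high glucose, with 2.18 and 3.60 FPKM (q = 0.0489) in the authors' deposited table. Both Ndrg1 and Vegfa are also known as targets of other stress pathways.

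Genes of the glucocorticoid response, with other KLF genes and amino acid enzymes linked to KLF15, were also called in both directions. Of 21 tested, 12 rose and 4 fell from high to low glucose, with a median log2 change of 0.25, per the authors' deposited table. From high glucose to galactose 9 rose and 3 fell, and from low glucose to galactose 7 rose and 5 fell, with medians of 0.12 and 0.02 by the authors' deposited table. The share called higher was 57.1%, 42.9% and 33.3% in these 3 comparisons, beside 18.3%, 26.5% and 17.4% of all tested loci in the authors' deposited table. The share called lower was 19.0%, 14.3% and 23.8%, beside 18.2%, 24.8% and 16.0% of all tested loci in the authors' deposited table. Because the list mixes glucocorticoid-responsive genes with KLF genes and enzymes, these shares do not measure a glucocorticoid response. Dusp1, on this list, fell from 56.6 to 43.9 and 38.4 FPKM. Nr3c1, the glucocorticoid receptor gene, had 10.0, 12.2 and 11.7 FPKM and was called higher in low glucose (q = 0.000659) and in galactose (q = 0.00317) than in high glucose in the authors' deposited table. Gpt2, a mitochondrial alanine aminotransferase gene, rose from 19.3 to 65.5 and 94.2 FPKM per the authors' deposited table. Mt2, given above, is on this list too. Of the KLF genes, Klf4 rose from 32.5 to 48.6 and 75.4 FPKM, and Klf5 was called higher in galactose than in either glucose medium, with 52.5, 58.4 and 85.5 FPKM by the authors' deposited table. Even in galactose, the 0.595 FPKM of Klf15 was far below both in the authors' deposited table.

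**Figure D4:**
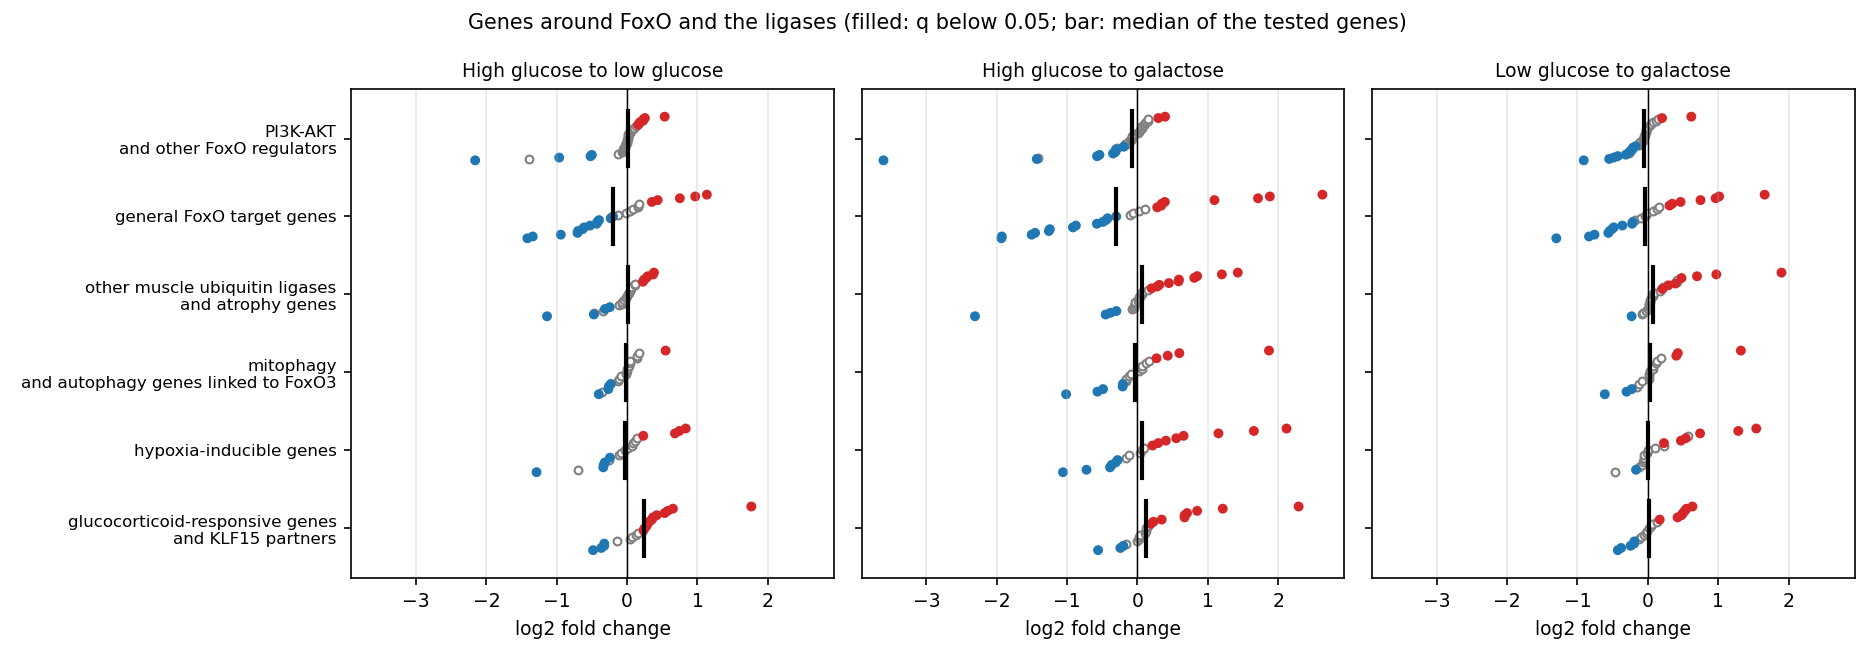
Log2 fold change (x axis), as the authors' deposited table gives it, of each tested gene of 6 lists (rows) in the 3 comparisons (panels); filled points had q below 0.05, open points were not called, and the black bar is the median of the list. The median of the general FoxO target genes lies left of 0, at -0.20, -0.30 and -0.05, with called genes on both sides in every panel.

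Genes with the most similar course were sought for the 3 tested genes with at least 1 FPKM and the largest change in galactose, by the distance between their 2 log2 changes from high glucose. With only 3 groups, a course is 2 log2 changes, so some of the 7645 candidate loci may lie close without being related. How many lie close to a gene was not counted. Nearest to Trim55 were a pair of loci of Olfm1, which encodes the secreted protein olfactomedin 1 (distances 0.0267 and 0.0537 on the log2 scale), and Loxl1, which encodes an elastin crosslinking enzyme (0.0766). Nearest to Fbxo32 were Ndrg2 (0.0799), the chemokine gene Cxcl1 (0.102) and the neurofilament gene Nefl (0.113). Nearest to Bnip3 were the phosphatase gene Dusp10 (0.0125), Eps8 (0.0148) and Tm7sf3 (0.0149). These distances were computed from the authors' deposited table.

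Some members share their locus with other transcripts in the GENCODE M21 annotation of the same build. Antisense-strand genes overlap 4 of them: Gm20402 overlaps Foxo1, Gm15943 overlaps Fbxo32, Gm15469 overlaps Trim54, and Gm45507 and the pseudogene Gm18258 overlap Bnip3. Whether the authors counted reads by strand is not given in the sources used here, so reads of such partners cannot be told apart from those of the 4 members. On the same strand, Gm38034 lies within Foxo1 and BC002189 within an intron of Trim55.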

How the data were processed

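PolyA RNA of C2C12 cells was sequenced from 4 libraries in each of 3 groups, taken from the labels. The tools named in the submitters' processing notes are Cuffdiff, Cufflinks 2.2.0 and TopHat2 2.0.10, with the genome build mm10; the settings are not given in the sources used here. The deposited group values are FPKM, the deposited fold change is their log2 ratio with no pseudocount, and the deposited test score carries the sign of the change and was not used. Recomputing the Benjamini-Hochberg adjustment of the authors' p-value over all 44006 tests gave the deposited q-value, with a lowest p of 5e-05. With 1 pooled value per group, no test across libraries could be fitted, where a fit would otherwise be used.

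The 10 genes and all lists were chosen with earlier results of these data known. A gene was called where it was tested and q was below 0.05, and list counts use the same rule; percentiles are over loci tested in any comparison. Named genes are all 10, up to 4 called genes per list with at least 1 FPKM and the largest change from high glucose to galactose, and Igf1r, Irs2, Akt1, Sirt1, Ep300, Cdkn1b, Sod2, Bnip3l, Map1lc3b and Nr3c1. Asb2, Fbxo21, Ube2d1, Usp19 and Dusp1 were named after their values were seen, as genes that fell. For likeness, the 3 nearest loci by Euclidean distance were taken among loci with 1 symbol and a mean of at least 5 FPKM. Markers named to check the cell type were chosen after their values were seen. Start positions were raised by 1. Promoter windows came from a RefSeq table of GRCm38.p6, which held 7 of the 10 genes and not Foxo4, Fbxo32 or Trim55. The adjustment was tested on simulated data. Alternatives were q below 0.01, a log2 change of at least 1, at least 1 FPKM, adjustment within a comparison, loci of several symbols left out, 1 FPKM added, centring on the median, and values summed over loci. Python 3.11.15, pandas 2.3.3, numpy 2.4.6 and matplotlib 3.10.9 were used.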

Additional observations from a re-analysis of the deposited data

How the results depend on the processing

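Of the counts of the 10 genes called, in total and by direction, none moved by over 1.5 times with at least 1 FPKM required or with adjustment within each comparison. From low glucose to galactose, the 8 called became 7 under either setting. Requiring 1 FPKM took the 4 higher to 3, and adjustment within the comparison took the 4 lower to 3, with Foxo3 lost. None of the 10 loci holds several symbols, so leaving such loci out could not change a count. At q below 0.01, the 7 called from high glucose to galactose became 5. The 1 called higher there (Fbxo30) was lost, leaving 0, and the 6 lower became 5. From low glucose to galactose the 8 called became 5, the 4 higher became 2 and the 4 lower became 3. Foxo3 was the gene lost from the lower count in both of these comparisons. With an absolute log2 change of at least 1, the 5 called from high to low glucose, all lower, became 3; from high glucose to galactose 2 were called, 2 lower and 0 higher; from low glucose to galactose 2 were called, 2 higher and 0 lower. The direction of each of the 30 log2 changes of the 10 genes stayed after centring on the median of all tested loci, which was 0.01 in each comparison. Adding 1 FPKM to both groups shrinks a log2 change but cannot turn its direction. Each of the 10 genes has 1 locus, so summing over the loci of a symbol could change nothing. No paired analysis was possible because the table holds 1 pooled value per group and no value per library; for the same reason no library could be left out. Without counts, depth is unknown, and it limits Trim63 and Klf15 most, both below 1 FPKM in every medium.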

Other observations

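Foxo6, the other FoxO gene of the mouse, is not among the 10 genes and was looked at after its values were seen. Its locus on chromosome 4 from 120267078 to 120287261 (mm10) had 2.56, 2.29 and 4.56 FPKM in high glucose, low glucose and galactose in the authors' deposited table. Foxo6 was higher in galactose by log2 changes of 0.83 from high glucose and 1.00 from low glucose (both q = 0.000239), and was not called between both glucose media (q = 0.191), in the authors' deposited table. In galactose, Foxo6 was thus higher while Foxo1, Foxo3 and Foxo4 were each lower than in high glucose. Its level stayed below that of each of those 3 genes in every medium of the authors' deposited table. The FoxO sum given above leaves Foxo6 out, so it does not give the order of the media for the whole family. FoxO6 is known for shuttling less between nucleus and cytoplasm than its relatives.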
